A study of Mus musculus with 6 samples.

Results

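The genes described here encode the subunits of the mouse proteasome, its activators and the factors that assemble it. They were chosen by name: every protein-coding gene of the GENCODE M21 annotation whose symbol begins with Psma to Psmg and a number, with *Pomp* and *Adrm1* added. The rule gave 52 genes, of which 49 were among the 11234 genes listed in every library. *Psma8*, *Psmb8* and *Psmb11* were not analysed here. One of the 49, *Psmc3ip*, matches by its letters only, since it encodes a recombination factor, and 48 proteasome genes remain. MC3T3-E1 is a preosteoblast line of C57BL/6 mouse origin. The compound given was C3G, or cyanidin-3-O-glucoside, an anthocyanin found in coloured fruits. After serum-free synchronization, the control group (n = 3 libraries) received complete medium and the C3G group (n = 3 libraries) the same medium with 100 μmol/L C3G, in both groups for 24 h, and the labels give passage 4 for every library. The labels do not say whether the libraries of a group came from separate cultures, so the p values measure the spread between these libraries, which may be technical. The values are FPKM, fragments scaled to transcript length and to the size of the library, so levels can be set side by side between genes, and their depth is unknown. Where 3 values are listed for a group, they follow the replicate number from 1 to 3.

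The proteasome degrades proteins that have been tagged with ubiquitin. Its 20S core is a barrel of stacked rings, in which alpha subunits form the outer rings and the gate, and beta subunits form the inner rings that hold the protein-cutting sites. The 19S regulatory particle caps the barrel, recognizes ubiquitin, removes it, and unfolds the protein with a ring of ATPases. In cells exposed to interferon, the immunoproteasome subunits encoded by *Psmb8*, *Psmb9* and *Psmb10* can replace the constitutive catalytic subunits encoded by *Psmb5*, *Psmb6* and *Psmb7*, and the core then produces peptides suited to antigen presentation. In osteoblast lineage cells the proteasome is known for turning over regulators of bone formation such as Runx2.

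The stretches before the start sites of 6 members are shown because they belong to catalytic subunits compared below, to *Psma1* and to *Psmf1*, the only member whose groups did not overlap. *Psmb7*, the remaining catalytic subunit of the pairs compared, is not shown here. The stretches are the 250 bases before the start in RefSeq on GRCm38.p6, read 5′ to 3′ on the strand of the gene. For *Psmb9* and *Psmf1* the stretch lies inside the gene span of GENCODE M21 given below, whose start differs. Capitals mark matches, on either strand, to TGACNNNGC (the core of the antioxidant response element, bound by NRF1 and NRF2) and to CCAAT (the NF-Y box). *Psma1* lies at chr7:114276117-114276366 on the minus strand, *Psmb5* at chr14:54617996-54618245 on the minus strand, *Psmb6* at chr11:70525107-70525356 on the plus strand, *Psmb9* at chr17:34187331-34187580 on the minus strand, *Psmb10* at chr8:105938393-105938642 on the minus strand and *Psmf1* at chr2:151741311-151741560 on the minus strand.
Psma1: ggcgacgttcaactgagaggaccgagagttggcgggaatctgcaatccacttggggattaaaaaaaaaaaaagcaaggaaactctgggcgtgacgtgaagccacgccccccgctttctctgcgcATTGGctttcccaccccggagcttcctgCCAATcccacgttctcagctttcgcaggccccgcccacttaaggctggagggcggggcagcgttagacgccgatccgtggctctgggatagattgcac
Psmb5: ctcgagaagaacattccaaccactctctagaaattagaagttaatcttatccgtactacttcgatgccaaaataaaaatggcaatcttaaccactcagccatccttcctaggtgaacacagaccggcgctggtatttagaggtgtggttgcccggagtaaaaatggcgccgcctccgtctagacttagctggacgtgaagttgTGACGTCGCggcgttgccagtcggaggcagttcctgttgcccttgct
Psmb6: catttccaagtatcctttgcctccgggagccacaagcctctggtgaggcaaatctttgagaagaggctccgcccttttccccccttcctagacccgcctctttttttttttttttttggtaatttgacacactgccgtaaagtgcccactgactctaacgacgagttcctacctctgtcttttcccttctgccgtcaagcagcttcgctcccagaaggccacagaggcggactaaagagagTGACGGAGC
Psmb9: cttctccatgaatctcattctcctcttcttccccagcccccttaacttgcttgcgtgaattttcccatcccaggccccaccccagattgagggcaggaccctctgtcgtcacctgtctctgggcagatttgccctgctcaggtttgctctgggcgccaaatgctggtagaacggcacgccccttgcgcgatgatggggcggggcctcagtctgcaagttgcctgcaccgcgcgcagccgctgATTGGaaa
Psmb10: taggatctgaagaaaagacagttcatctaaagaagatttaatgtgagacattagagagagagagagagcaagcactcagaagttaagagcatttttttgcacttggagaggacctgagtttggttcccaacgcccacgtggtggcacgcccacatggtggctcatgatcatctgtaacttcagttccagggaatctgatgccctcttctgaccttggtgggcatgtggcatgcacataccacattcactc
Psmf1: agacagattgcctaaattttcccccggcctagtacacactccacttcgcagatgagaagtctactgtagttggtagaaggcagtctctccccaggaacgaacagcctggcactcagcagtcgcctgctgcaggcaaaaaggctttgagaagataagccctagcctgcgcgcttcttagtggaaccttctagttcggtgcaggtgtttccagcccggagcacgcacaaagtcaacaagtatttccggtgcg
Of the constitutive catalytic subunit genes shown, *Psmb5* and *Psmb6* hold TGACGTCGC from base -47 and TGACGGAGC from base -9 before the start. *Psma1* holds CCAAT on both strands, *Psmb9* holds it on the reverse strand from base -8, and *Psmb10* and *Psmf1* hold neither set of letters.

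Such a stretch was at hand for 41 of the 48 proteasome genes, and the others were not found among the promoter sequences used. TGACNNNGC occurred in 6 of the 41 (14.6%), *Adrm1*, *Psmb5*, *Psmb6*, *Psmc6*, *Psmd9* and *Psmd12*, against 11.5% of all 27025 genes in the table. CCAAT occurred in 14 of the 41 (34.1%), against 37.5% of all genes. By part it occurred in 5 of 7 alpha, 1 of 4 beta and 1 of 2 immunoproteasome subunit genes, 2 of 5 ATPase, 2 of 4 other base and 1 of 6 lid genes, 1 of 6 activators and 1 of 7 assembly factors, and these differences were not tested. The interferon-stimulated response element, searched as GAAA, any 2 bases and GAAA again, occurred in 3 of the 41 (7.32%), *Psmb3*, *Psmd4* and *Psmd9*, against 3.46% of all genes. The letters were searched on both strands in the same window, and none of these motifs overlapped another in the stretches printed. A match describes the sequence and is not evidence of binding.

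Control replicate 1 stood apart from the other 5 libraries. Its Pearson's r with them, on log2(FPKM + 1) over all genes, was 0.886 to 0.939, against 0.968 to 0.992 among the others. Over the 48 proteasome genes, the order of FPKM levels gave a Spearman's rho of 0.826 to 0.903 with control replicate 1 and of 0.966 to 0.997 among the other libraries, as a description across genes of shared libraries. The preosteoblast label was checked against 8 osteoblast lineage genes, 7 of which were listed. *Col1a1* and *Col1a2*, the chains of type I collagen, had 2199 and 1110 FPKM as control means, and 1082 and 667 FPKM without control replicate 1. *Runx2* had a control mean of 7.59 FPKM, and *Sp7* was low at 0.592. *Ibsp* was not analysed here. Of 3 chondrocyte genes, *Sox9* and *Col2a1* were listed, with control means of 70.3 and 65.0 FPKM. Control replicate 1 raised both means. *Sox9* had 106, 48.2 and 56.5 FPKM and *Col2a1* 104, 43.7 and 46.9 FPKM in the control libraries. No adipocyte or endothelial marker of the lists was among the listed genes. Of 5 leukocyte markers, *Cd68* and *Cd14* were listed, and their summed level was 1.73 to 2.74 FPKM in control and 2.90 to 3.65 FPKM in C3G libraries. Of 3 muscle genes only *Des* was listed, with a control mean of 1.14 FPKM. The part of these markers in the results below was not tested, and in such bulk RNA fewer cells of a type and less RNA per cell cannot be told apart.

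The proteasome was strongly expressed in both groups, and its parts differed in level. Averaged over the 6 libraries, 43 of the 48 genes lay above the median gene (7.20 FPKM). Constitutive beta subunits had the highest median level, 76.4 FPKM (39.1 to 174). They were followed by the 19S ATPases at 51.8 (20.9 to 87.3), the alpha subunits at 38.8 (19.2 to 82.5) and the 19S subunits without ATPase activity at 31.9 (15.5 to 71.0). Activators and inhibitors of the core ends had a median level of 17.6 FPKM (1.61 to 48.6) and assembly factors one of 12.1 (6.39 to 23.9). The immunoproteasome subunits *Psmb9* and *Psmb10* were near the bottom, at 1.64 and 5.38 FPKM. The plot of FPKM by gene and library shows these levels, with control replicate 1 displaced to either side of the other libraries. The order rests on means over the 6 libraries, and in control replicate 1 the alpha subunits had a median of 12.7 FPKM, below the 19S subunits without ATPase activity (24.5) and the activators (22.2).

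**Figure D1:**
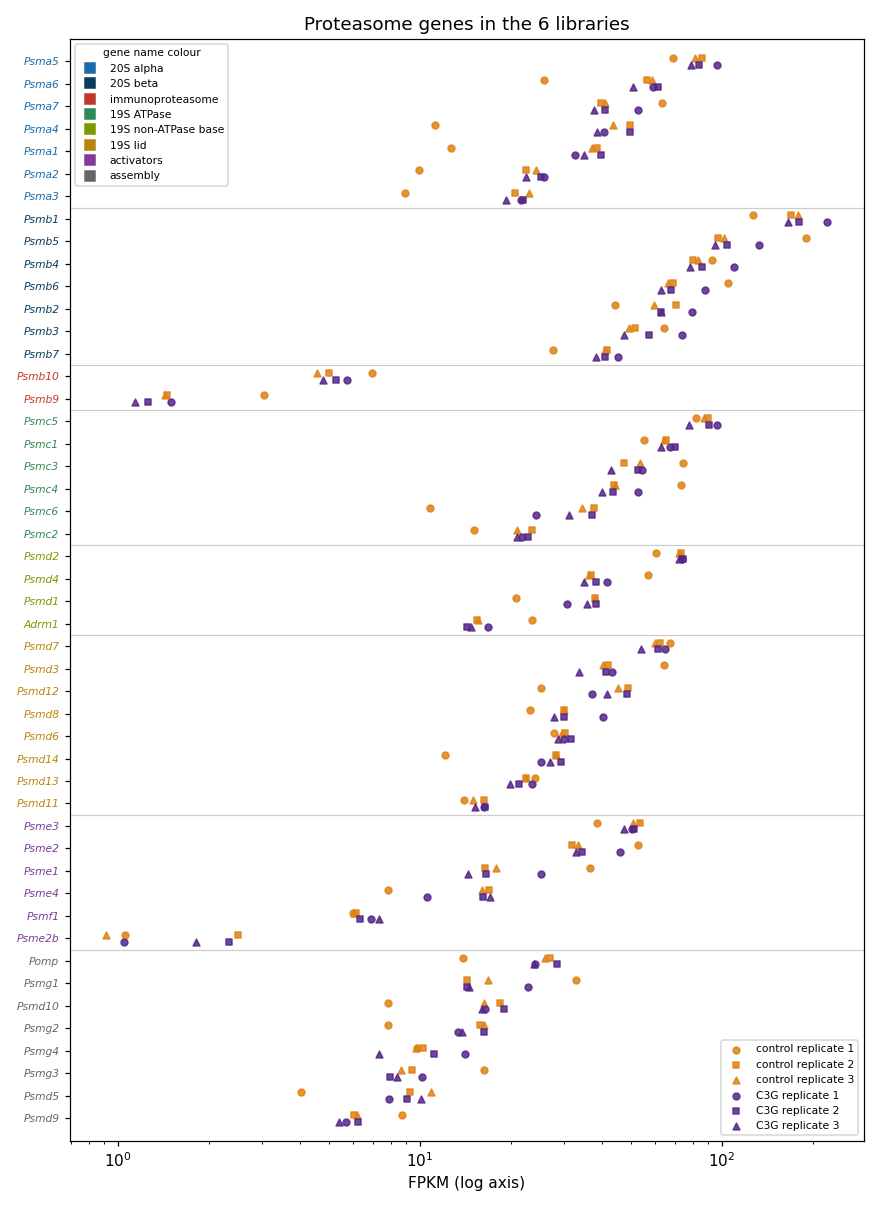
FPKM on a log axis for the 48 proteasome genes, grouped by part of the complex (name colour), with 1 point per library (orange control, violet C3G; circle, square and triangle for replicates 1, 2 and 3). Constitutive beta subunits reach 174 FPKM on average, *Psmb9* lies at 1.64, and the orange circles of control replicate 1 leave the other points in many genes.

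None of the 48 proteasome genes was called different between C3G-treated and untreated cells. A call needed both an unadjusted limma p under 0.05 and a change of 1.2-fold or more on the log2(FPKM + 1) scale, which 0.650% of all 11234 genes passed. No member had an unadjusted limma p under 0.05 (0.659% of all genes did), and the smallest was 0.185, for *Psmb9* (adjusted p = 0.992 by limma). With an ordinary linear model in place of limma's moderation, 1 member had p under 0.05, *Psmf1*, below the fold change, beside 0.908% of all genes at that p. The median log2 difference of the 48 genes, C3G minus control, was 0.10, beside 0.06 over all genes. Of the 48, 31 (64.6%) had a difference above 0, beside 62.0% of all genes. All values of one group lay beyond those of the other in 1 member, *Psmf1*, which was higher with C3G, beside 4.02% of all genes in either direction and 2.55% in that one.

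These data bound the changes more firmly in some members than in others. On the log2(FPKM + 1) scale, the 95% interval of the difference left out a 2-fold change in either direction in 37 of the 48 genes. It left out a 1.5-fold change in 12. In FPKM these limits are looser for low genes. For *Psmb9* and *Psme2b*, at 1.64 and 1.61 FPKM on average, the interval does not leave out a 2-fold change in FPKM. The half-width of the interval ranged from 0.33 to 1.25 on the log2(FPKM + 1) scale. With replicates 2 and 3 only, which leaves out the library that stood apart and its same-numbered C3G library, 40 of the 48 log2 differences were under 0.1 in size. On the log2(FPKM + 1) scale the interval then left out a 1.5-fold change in 46 of the 48, and 1.70% of all genes were called but no member. In that comparison 13 of the 48 (27.1%) had a difference above 0, beside 45.0% of all genes, and the median was -0.04, beside -0.01 over all genes. A correction for GC content fitted with the replicate number as a block called 2.19% of all genes and 0 of the 48. The plot of differences sets both comparisons side by side.

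**Figure D2:**
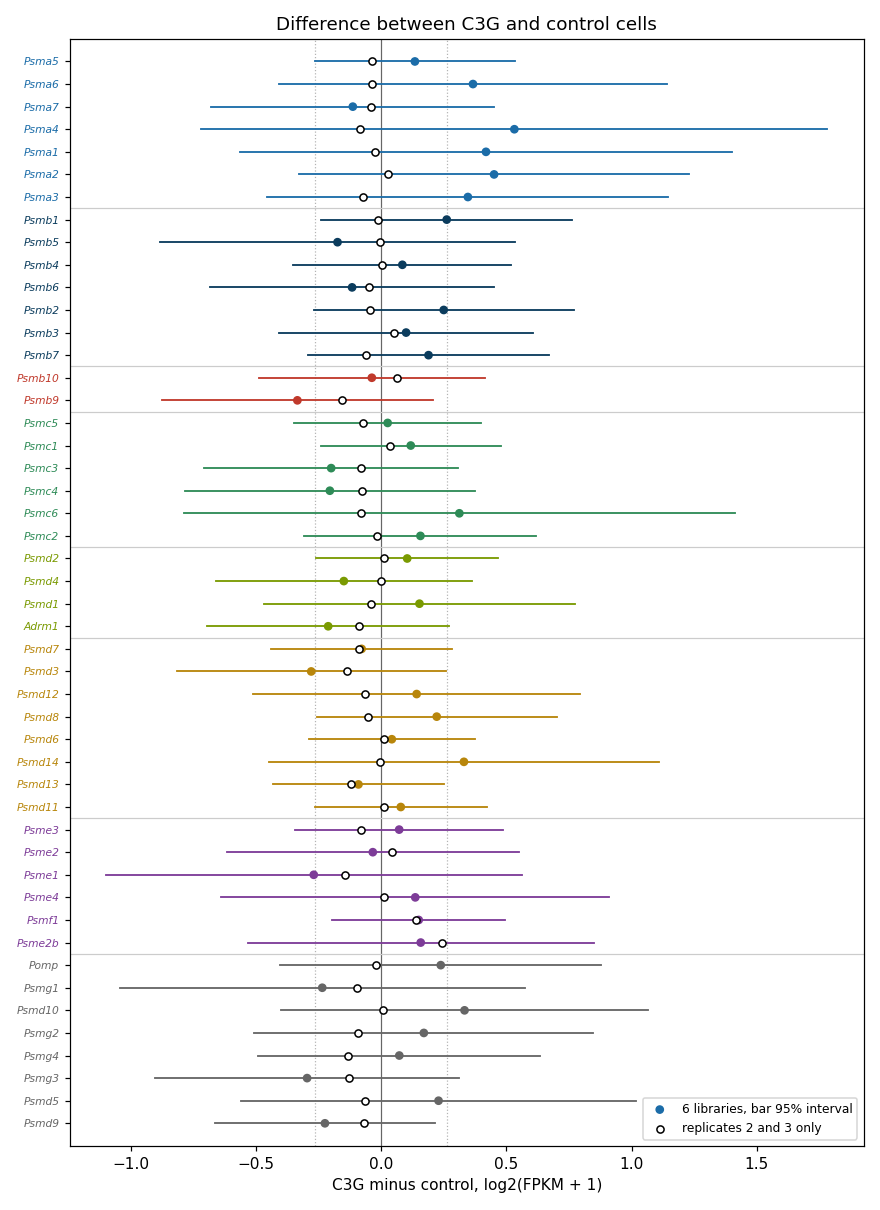
Log2 difference, C3G minus control on the log2(FPKM + 1) scale, for the 48 proteasome genes, with filled points and 95% limma intervals from 6 libraries and open points from replicates 2 and 3 only; dotted lines mark a 1.2-fold change. Every interval spans 0, and 40 of the open points lie within 0.1 of it.

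The alpha subunits had the largest median log2 difference of the parts in the 6 libraries, 0.37, and it was -0.01 without control replicate 1, -0.04 with replicates 2 and 3 only and 0.20 with a GC correction. Of the 7, 6 had higher means with C3G, and none was called. *Psma1* (ENSMUSG00000030751.18, chromosome 7 of GRCm38, 114264606 to 114276118, minus strand) encodes a subunit of the outer ring. It had 12.7, 38.6 and 37.1 FPKM in the control libraries and 32.7, 39.7 and 35.0 FPKM in the treated libraries. Control replicate 1 was far below the rest, which overlapped. The means were 29.5 ± 14.6 FPKM (SD, n = 3) without C3G and 35.8 ± 3.56 FPKM (SD, n = 3) with it, a log2 difference of 0.42 ± 0.412 (SE, limma p = 0.345, exact permutation p = 0.8). *Psma4*, with the largest log2 difference of all members at 0.53 (95% interval -0.72 to 1.78, limma p = 0.346, exact permutation p = 0.9), had 11.2, 49.6 and 43.5 FPKM in the controls and 40.6, 49.5 and 38.6 FPKM with C3G. Without control replicate 1 its log2 difference was -0.12. *Psma5* was the highest alpha subunit, at 68.8 to 86.0 FPKM in controls and 79.0 to 96.2 FPKM with C3G, and *Psma3* the lowest, at 8.96 to 22.9 FPKM and 19.3 to 21.99 FPKM. Their log2 differences were 0.13 and 0.35, and turned to -0.04 and -0.07 with replicates 2 and 3 only. *Psma2* (0.45), *Psma6* (0.37) and *Psma7* (-0.11) completed the ring, and without control replicate 1 their log2 differences were 0.066, -0.011 and 0.10. *Psma7*, the alpha subunit with the highest GC content (57.4%), was the only one in which control replicate 1 was the highest library.

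The constitutive beta subunits include the protein-cutting sites, and their median log2 difference was 0.10 in the 6 libraries and -0.01 with replicates 2 and 3 only. *Psmb1* (ENSMUSG00000014769.9, chromosome 17, 15475021 to 15499751), a subunit without a cutting site, was the highest member. It had 127, 170 and 179 FPKM in the control libraries and 223, 179 and 166 FPKM in the treated libraries. The groups overlapped, and the log2 difference was 0.26 ± 0.211 (SE, limma p = 0.256, exact permutation p = 0.4), and 0.11 without control replicate 1. *Psmb5* (ENSMUSG00000022193.7, chromosome 14, 54614119 to 54618022) encodes the chymotrypsin-like site and had 190, 96.9 and 102 FPKM in controls and 133, 104 and 94.5 FPKM with C3G. Replicate 1 was the highest library in both groups, and the log2 difference was -0.17 (95% interval -0.88 to 0.54, limma p = 0.578, exact permutation p = 0.7). *Psmb6*, the caspase-like site, had 105, 68.6 and 66.4 FPKM in controls and 88.0, 67.8 and 62.7 FPKM with C3G, a log2 difference of -0.12 (limma p = 0.642, exact permutation p = 0.6). *Psmb7*, the trypsin-like site, had 27.6, 41.7 and 41.1 FPKM in controls and 45.1, 40.9 and 38.4 FPKM with C3G, a log2 difference of 0.19 (limma p = 0.383, exact permutation p = 0.6). Control replicate 1 was thus the highest library for *Psmb5* and *Psmb6* and the lowest for *Psmb7*. *Psmb2*, *Psmb3* and *Psmb4*, the remaining constitutive beta subunits, had log2 differences of 0.25, 0.10 and 0.08.

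The immunoproteasome subunits were low in both groups. *Psmb9* (ENSMUSG00000096727.2, chromosome 17, 34181987 to 34187764, minus strand), the inducible counterpart of *Psmb6*, had 3.04, 1.46 and 1.43 FPKM in the control libraries and 1.499, 1.25 and 1.14 FPKM in the treated libraries. Its C3G replicate 1 lay between the control values, so the groups overlapped. Within each same-numbered pair the C3G library was lower (3 of 3 pairs). The same held in *Adrm1*, *Psmb6*, *Psmc4*, *Psmd3*, *Psmd7*, *Psmd13*, *Psmg1* and *Psmg3*, while *Psmd11* and *Psmf1* were higher in each pair. The share of all genes with such a pattern is not given here. For *Psmb9* the values were as follows. The log2 difference was -0.33 ± 0.227 (SE, limma p = 0.185, exact permutation p = 0.3; limma p = 0.0907 with the replicate number as a block), -0.092 without control replicate 1 and -0.15 with replicates 2 and 3 only. *Psmb10* (ENSMUSG00000031897.9, chromosome 8, 105935735 to 105938444), the counterpart of *Psmb7*, had 6.92, 4.99 and 4.56 FPKM in controls and 5.71, 5.29 and 4.79 FPKM with C3G. Its groups overlapped fully, with a log2 difference of -0.04 (95% interval -0.49 to 0.41, limma p = 0.8505, exact permutation p = 0.9), which turned to 0.06 with replicates 2 and 3 only.

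Set against its constitutive counterpart within each library, *Psmb9* was 34.4 to 58.7 times lower in FPKM than *Psmb6*. Its level was 2.90%, 2.12% and 2.16% of that of *Psmb6* in the control libraries and 1.70%, 1.85% and 1.82% in the treated ones. All C3G libraries lay below all control libraries, at 1.79% ± 0.0773 (SD, n = 3) against 2.40% ± 0.440 (SD, n = 3). Among single genes the groups did not overlap in 4.02% of all genes, and no such share was computed for ratios. *Psmb9* had only 1.14 to 3.04 FPKM, and the counts behind such low values are unknown. The log2 ratio was 0.40 lower with C3G (log2 difference -0.40, two-sided exact permutation p = 0.1, 0.2 after Benjamini-Hochberg adjustment over the 2 pairs), and 0.1 is the smallest p that 3 libraries against 3 allow. The ratio was lower in 3 of 3 same-numbered pairs, and an exact test that keeps the pairs, by flipping signs, gave p = 0.25, the smallest it can give with 3 pairs. Without control replicate 1 the log2 difference of the ratio was -0.26, and with replicates 2 and 3 only it was -0.22. *Psmb10* was at 25.0%, 11.98% and 11.1% of *Psmb7* in controls and at 12.7%, 12.9% and 12.5% with C3G. The control replicates bracketed the C3G values (log2 difference of the ratio -0.24, exact permutation p = 1), and without control replicate 1 it was 0.14. The pair of *Psmb8* and *Psmb5* was not analysed here. The exons of *Psmb9* overlap those of *Tap1*, its neighbour on the opposite strand, and how strand was handled in the quantification is not given in the sources used here.

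**Figure D3:**
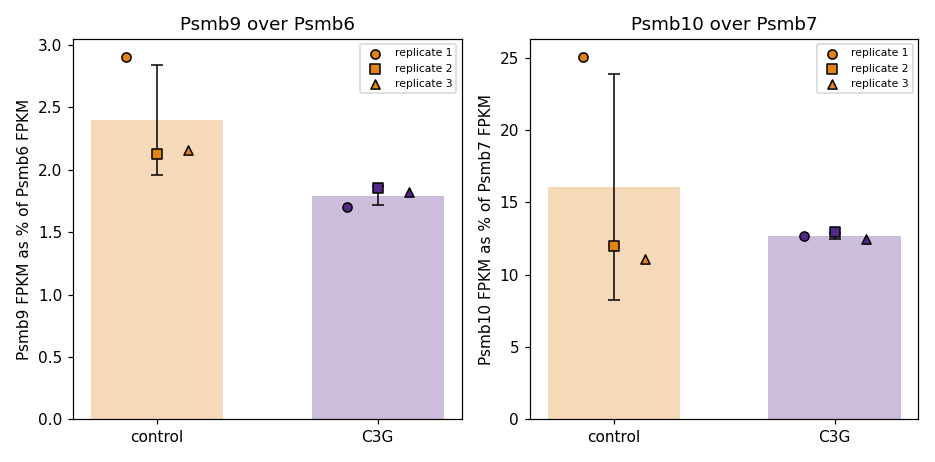
FPKM of *Psmb9* as a percentage of *Psmb6* (left) and of *Psmb10* as a percentage of *Psmb7* (right) in each library; bars are group means, error bars are SD (n = 3) and points are replicates 1, 2 and 3. The *Psmb9* percentages with C3G (1.70 to 1.85) lie under those of the controls (2.12 to 2.90), whereas those of *Psmb10* lie between the controls.

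The 6 ATPases that form the unfolding ring of the 19S particle had a median log2 difference of 0.07, and of -0.07 with replicates 2 and 3 only. *Psmc5*, the highest, had 82.3, 89.9 and 86.9 FPKM in the control libraries and 96.2, 90.7 and 77.9 FPKM in the treated libraries. Its log2 difference of 0.03 had a 95% interval of -0.35 to 0.40 (limma p = 0.872, exact permutation p = 0.8). *Psmc2*, the lowest, had 15.1, 23.5 and 20.9 FPKM in controls and 21.8, 22.8 and 21.03 FPKM with C3G, a log2 difference of 0.16 (limma p = 0.447, exact permutation p = 0.6). *Psmc6*, with the lowest GC content of all members (37.0%), was the widest of the ring, with 10.8, 37.6 and 34.4 FPKM in controls and 24.1, 37.2 and 31.1 FPKM with C3G. Replicate 1 was the lowest library in both groups, and the log2 difference was 0.31 (95% interval -0.79 to 1.41, limma p = 0.522, exact permutation p = 0.9). *Psmc1*, *Psmc3* and *Psmc4* had log2 differences of 0.12, -0.20 and -0.20, and of 0.043, -0.016 and 0.034 without control replicate 1.

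The 12 subunits of the 19S particle without ATPase activity bind and remove ubiquitin or hold the particle together, and their median log2 difference was 0.06. *Psmd2*, the highest, encodes a large scaffold of the base that also binds ubiquitin, and it had 60.2, 73.1 and 72.2 FPKM in controls and 74.0, 74.4 and 72.0 FPKM with C3G. Its log2 difference was 0.10 in the 6 libraries and 0.01 with replicates 2 and 3 only. *Adrm1*, a ubiquitin receptor, had 23.4, 15.4 and 15.6 FPKM in controls and 16.8, 14.3 and 14.8 FPKM with C3G. It was lower with C3G in each same-numbered pair, and C3G replicate 1 lay within the control range (log2 difference -0.21, limma p = 0.335, exact permutation p = 0.4). Without control replicate 1 the difference in *Adrm1* was -0.023, and with replicates 2 and 3 only it was -0.090. *Psmd4*, a further ubiquitin receptor of the base, had a log2 difference of -0.15 and *Psmd1* one of 0.15, and without control replicate 1 these were 0.059 and -0.12. In the lid, *Psmd14* encodes the deubiquitinase that releases ubiquitin chains. It had 12.1, 28.1 and 28.1 FPKM in the control libraries and 25.1, 29.3 and 26.9 FPKM in the treated libraries. Its log2 difference of 0.33 (limma p = 0.347, exact permutation p = 0.8) was the largest of the lid and turned to -0.05 without control replicate 1. *Psmd7*, the partner of *Psmd14* in the lid and the highest lid gene, had 67.4, 62.5 and 60.0 FPKM in controls and 64.9, 61.3 and 53.9 FPKM with C3G (log2 difference -0.08, limma p = 0.626, exact permutation p = 0.5). *Psmd11*, the lowest, was among the least variable members, at 13.96 to 16.3 FPKM in controls and 15.2 to 16.4 FPKM with C3G (log2 difference 0.08, 95% interval -0.27 to 0.42). *Psmd3*, *Psmd6*, *Psmd8*, *Psmd12* and *Psmd13* had log2 differences of -0.28 to 0.22, and of -0.15 to 0.10 without control replicate 1.

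Among the proteins that bind the ends of the core, *Psmf1* was the only member without overlap between the groups. It encodes PI31, which was first described as an inhibitor of the core, and it lies on chromosome 2 (ENSMUSG00000032869.15, 151715812 to 151744186, minus strand). It had 6.01, 6.13 and 6.03 FPKM in the control libraries and 6.89, 6.34 and 7.30 FPKM in the treated libraries. The means were 6.06 ± 0.0658 FPKM (SD, n = 3) and 6.84 ± 0.478 FPKM (SD, n = 3), a log2 difference of 0.15 ± 0.145 (SE, limma p = 0.336, exact permutation p = 0.1). Leaving out any 1 library kept this difference in the range of 0.11 to 0.20, under the fold change of 1.2. It was 0.084 with quantile normalization, 0.085 with median centring and 0.070 with the GC correction. In this gene control replicate 1 departed from control replicates 2 and 3 by -0.015 on the log2 scale.

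*Psme1* and *Psme2* encode the PA28 alpha and beta subunits, an activator induced by interferon. *Psme1* had 36.6, 16.4 and 17.9 FPKM in controls and 25.2, 16.5 and 14.4 FPKM with C3G, and replicate 1 was the highest in both groups (log2 difference -0.27, 95% interval -1.10 to 0.56, limma p = 0.467, exact permutation p = 0.6). *Psme2* had 52.6, 31.9 and 33.5 FPKM in controls and 46.1, 34.5 and 33.0 FPKM with C3G (log2 difference -0.03, limma p = 0.896, exact permutation p = 0.9). *Psme2b*, a copy of *Psme2*, had 0.914 to 2.51 FPKM in controls and 1.05 to 2.34 FPKM with C3G. *Psme2* holds 60.2% of the 75-base stretches of the *Psme2b* transcript, so the level of *Psme2b* depends on how shared reads were divided. *Psme3*, the nuclear PA28 gamma, had 38.6, 53.5 and 50.7 FPKM in controls and 50.5, 51.1 and 47.2 FPKM with C3G (log2 difference 0.07, limma p = 0.693, exact permutation p = 0.9). *Psme4*, the activator PA200, had 7.84, 16.9 and 16.0 FPKM in controls and 10.5, 16.1 and 17.1 FPKM with C3G, with replicate 1 the lowest library in both groups (log2 difference 0.14, limma p = 0.688, exact permutation p = 0.6).

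The assembly factors had a median log2 difference of 0.12, and of -0.08 with replicates 2 and 3 only. *Pomp*, which guides the maturation of the beta rings, was the highest, at 13.9, 26.9 and 26.0 FPKM in controls and 24.1, 28.5 and 23.9 FPKM with C3G (log2 difference 0.24, limma p = 0.406, exact permutation p = 0.8). *Psmd9*, a chaperone of the 19S base, was the lowest, at 8.75, 6.06 and 6.20 FPKM in controls and 5.71, 6.22 and 5.41 FPKM with C3G (log2 difference -0.22, limma p = 0.266, exact permutation p = 0.3). Without control replicate 1 the difference in *Psmd9* was -0.074, and with replicates 2 and 3 only it was -0.067. *Psmd10*, the chaperone gankyrin, had 7.84, 18.4 and 16.3 FPKM in controls and 16.5, 18.97 and 16.0 FPKM with C3G. Its log2 difference, 0.33, was the largest of the factors (limma p = 0.316, exact permutation p = 0.5), and without control replicate 1 it was -0.02. *Psmd5*, the remaining chaperone of the base, had a log2 difference of 0.23, and of -0.15 without control replicate 1. The chaperones of the alpha ring, *Psmg1*, *Psmg2*, *Psmg3* and *Psmg4*, had log2 differences of -0.24, 0.17, -0.30 and 0.07. Without control replicate 1 these were 0.11, -0.15, -0.034 and 0.065. *Psmc3ip*, which matched by letters only, had a mean of 10.2 ± 2.45 FPKM (SD, n = 3) in controls and 10.5 ± 2.93 FPKM (SD, n = 3) with C3G.

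The departure of control replicate 1 followed the GC content of the transcripts. In that library, 26 of the 48 genes had their lowest and 17 their highest value, so that 89.6% had an extreme there, beside 79.0% of all genes. Of the 26 members with a GC content under 50%, control replicate 1 was lowest in 23 and highest in 1, and of the 22 members with 50% or more it was lowest in 3 and highest in 16. Its departure from control replicates 2 and 3, on the log2 scale, ran with GC content at a Spearman's rho of 0.820 over the 48 members, and of 0.748 over all genes with a GC value. For C3G replicate 1 and its own group the rho was 0.669 over the members and 0.631 over all genes. The log2 difference between the groups ran the other way (rho -0.762 over the members and -0.541 over all genes), and it shares control replicate 1 with the first measure. Members under 50% GC had a median log2 difference of 0.16 and the others one of -0.13, and with replicates 2 and 3 only these were -0.02 and -0.07. The scatter of departure against GC content shows both relations.

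**Figure D4:**
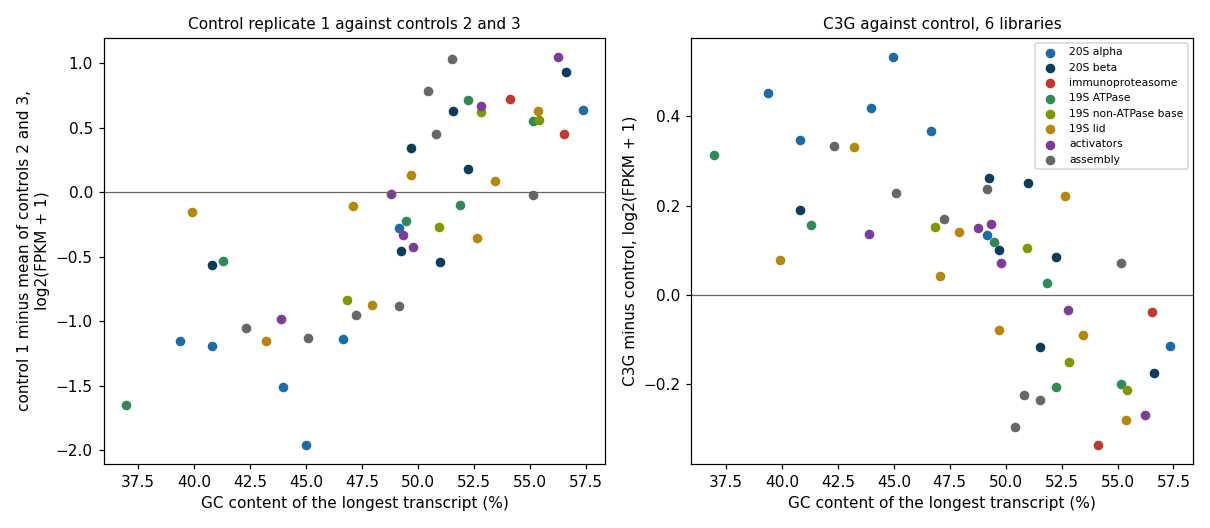
GC content of the longest transcript against the departure of control replicate 1 from control replicates 2 and 3 (left) and against the C3G minus control difference (right), both on the log2(FPKM + 1) scale, with 1 point per proteasome gene and colours for the parts of the complex. The departure rises from -1.96 in *Psma4* (45.0% GC) to 1.05 in *Psme1* (56.2% GC), and the difference between the groups falls along the same axis.

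Subunits that occupy equal places in a ring were not equal in FPKM. In the libraries other than control replicate 1, the highest alpha subunit was 3.55 to 4.44 times the lowest, the highest constitutive beta subunit 4.07 to 4.95 times, and the highest ATPase 3.70 to 4.41 times. In control replicate 1 these spans widened to 7.68, 6.88 and 7.64 times. Sequence shared with other genes limits such levels. The share of 75-base stretches that other genes hold too was 40.0% in *Psmb5*, 39.8% in *Psma5*, 21.3% in *Psma3* and 51.7% in *Psme2*.

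Of 43 related genes in 5 lists, 41 were listed and 0 were called by limma in either direction at the same thresholds, beside 0.650% of all genes. The transcription factor NRF1, encoded by *Nfe2l1*, raises proteasome genes when the proteasome is impaired. It had 34.0, 20.9 and 19.3 FPKM in controls and 22.9, 18.2 and 19.4 FPKM with C3G, and the groups overlapped (log2 difference -0.24, limma p = 0.351, exact permutation p = 0.6). The 8 genes of the NRF1 and NRF2 axis had a median log2 difference of -0.09, the 4 ubiquitin genes one of -0.03 and the 5 genes of the p97 unfoldase one of -0.08. The 14 listed proteasome-bound factors and ubiquitin shuttles had a median log2 difference of 0.17 in the 6 libraries and of 0.01 with replicates 2 and 3 only. The 10 genes of class I antigen processing, which use the peptides that the immunoproteasome produces, had a median log2 difference of -0.08, with values from -0.19 to 0.41. Groups without overlap occurred in 2 of the 41, beside 4.02% of all genes, and these were *Mafg*, a partner of NRF1 and NRF2 (14.5 to 13.3 FPKM as group means, log2 difference -0.12), and the shuttle *Ubqln2* (49.5 to 56.7 FPKM, log2 difference 0.19).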

How the data were processed

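RNA was sequenced from stranded KAPA libraries of 6 MC3T3-E1 samples, 3 per group, whose titles give the group and replicate number. The deposited FPKM values per gene were calculated by the authors with Ballgown. The submitters' processing notes also list cutadapt, HISAT2 2.1.0, StringTie, STAR 2.5.2b and the build hg19, with no role given. The identifiers are mouse, and names and positions here are those of GENCODE M21 on GRCm38. Of the 11234 identifiers 11211 matched, 9812 with the same version. In every listed gene at least 1 group averaged 0.5 FPKM or more. Low values gave no counts, so depth and counting error are unknown.

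Values were fitted as log2(FPKM + 1) with limma 3.58.1 in R 4.3.3 (eBayes with trend, group as the only term, no filter), with Benjamini-Hochberg adjustment over all 11234 genes. A difference on this scale understates changes of low genes. A call needed a limma p (two-sided, not adjusted) under 0.05 together with a fold change of 1.2, as in the study, whose text leaves the adjustment of its p open. For single values an exact permutation test, two-sided, was added, whose smallest p is 0.1. Ratios within a library used FPKM without a pseudocount. GC content is that of the longest transcript. The fit was tested on simulated data, drawn with independent noise for each gene and a common spread for both groups. The simulated data had no outlying library, GC trend or shared replicate deviations, unlike the data here. Python 3.11.15, pandas 2.3.3, numpy 2.4.6 and scipy 1.17.1 served the rest.

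The members and lists were chosen with earlier results of these data known. Members named with values were those without overlap, the catalytic subunits, the activators, *Psma1*, *Pomp* and *Adrm1*, and in each part the highest, the lowest and the one with the largest difference. Other members were given by their log2 difference. Of the related genes, *Nfe2l1* was named by rule and *Mafg* and *Ubqln2* after their values were seen, as the only genes of those lists without overlap. Replicate numbers come from the titles. Over all genes, same-numbered libraries deviated from their group means together (Pearson's r 0.653, 0.580 and 0.440 for replicates 1, 2 and 3), so the number was also fitted as a block. The alternatives were a pseudocount of 0.1, a mean FPKM of at least 1, eBayes without trend, quantile normalization, an ordinary linear model, the replicate block, median centring, a GC correction (a spline with 5 degrees of freedom) with and without the block, replicates 2 and 3 only, and leaving out each library.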

Additional observations from a re-analysis of the deposited data

How the results depend on the processing

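Under the 16 alternatives, 0 of the 48 proteasome genes were called. The replicate block, which called 169 of all genes against 73, changed no call among the members. Over all genes the count was 48 with the ordinary linear model, 135 with the GC correction, 246 with that correction and the block and 191 with replicates 2 and 3 only. It was 144, 127 and 100 without control replicates 1, 2 and 3 and 45, 40 and 43 without C3G replicates 1, 2 and 3. Of the 48 log2 differences, 25 reversed without control replicate 1, 22 with replicates 2 and 3 only, 8 with the GC correction (alone or with the block) and 2 with median centring, and 4, 2 and 2 reversed without C3G replicates 1, 2 and 3, 1 without control replicate 3 and 0 without control replicate 2. The depth of the libraries is unknown and cannot be weighed. Over the alternatives, the median log2 difference of all members ranged from -0.041 to 0.16, that of the alpha subunits from -0.038 to 0.58 (-0.011 without control replicate 1, 0.58 without control replicate 3), of the beta subunits from -0.054 to 0.24 (without C3G replicates 1 and 3), of the immunoproteasome subunits from -0.30 to 0.011, of the ATPases from -0.074 to 0.14 and of the other 19S subunits from -0.077 to 0.10. That of the activators moved from 0.10 to 0.064 with quantile normalization, to 0.039 with median centring, to -0.0045 with the GC correction (the block made no difference), to 0.028 with replicates 2 and 3 only and to 0.037 to 0.16 with single libraries left out. That of the assembly factors ranged from -0.080 with replicates 2 and 3 only to 0.21 without control replicate 2.

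The values below cover the 27 members named by rule, *Nfe2l1* and the ratios, not all 48 genes. With replicates 2 and 3 only, the log2 difference reversed to -0.019 in *Pomp*, -0.023 in *Psma1*, -0.073 in *Psma3*, -0.086 in *Psma4*, -0.037 in *Psma5*, -0.014 in *Psmb1*, 0.063 in *Psmb10*, -0.060 in *Psmb7*, -0.018 in *Psmc2*, -0.072 in *Psmc5*, -0.078 in *Psmc6*, -0.0030 in *Psmd14*, 0.043 in *Psme2* and -0.082 in *Psme3*, and the ratio of *Psmb10* to *Psmb7* to 0.14. The GC correction, alone or with the replicate block, reversed it to 0.024 in *Psmb10*, -0.026 in *Psmb7*, -0.047 in *Psmc2*, -0.00037 in *Psmc5*, -0.0029 in *Psmc6*, -0.16 in *Psmd11* and -0.018 in *Psme4*, and the ratio of *Psmb10* to *Psmb7* to 0.055. With median centring *Psmc5*, alone of the named members, reversed to -0.040. With single libraries left out, the log2 differences of named genes that reversed ranged from -0.39 to 0.0020 in *Nfe2l1*, -0.056 to 0.40 in *Pomp*, -0.084 to 0.68 in *Psma1*, -0.050 to 0.58 in *Psma3*, -0.12 to 0.90 in *Psma4*, -0.14 to 0.11 in *Psmb10*, -0.35 to 0.14 in *Psmb5*, -0.26 to 0.093 in *Psmb6*, -0.020 to 0.29 in *Psmc2*, -0.038 to 0.11 in *Psmc5*, -0.24 to 0.62 in *Psmc6*, -0.018 to 0.55 in *Psmd10*, -0.054 to 0.52 in *Psmd14*, -0.49 to 0.081 in *Psme1*, -0.18 to 0.19 in *Psme2*, -0.0052 to 0.43 in *Psme2b*, -0.069 to 0.16 in *Psme3*, -0.19 to 0.34 in *Psme4* and -0.45 to 0.14 in the ratio of *Psmb10* to *Psmb7*. The cause was not tested. The log2 difference of the ratio of *Psmb9* to *Psmb6* stayed below 0 under every alternative computed, from -0.55 with quantile normalization to -0.22 with replicates 2 and 3 only.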
